A study of Mus musculus with 2 samples.

Results

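The genes of sterol and fatty acid synthesis were followed in myeloid cells sorted as Gr-1+ CD11b+ from BALB/c mice, as 33 genes chosen by symbol among the 24346 in the expression tables. They fall into 16 enzymes of the mevalonate and sterol pathway, 5 regulators of sterol synthesis, 6 enzymes of fatty acid synthesis, elongation and desaturation, and 6 genes of sterol efflux, transport and storage. All 33 were found. Neutrophils and some monocytes carry both of these surface markers, and the mice had been given 3% dextran sulfate sodium, which causes colitis, for 6 days. The ATPγS library came from cells stimulated for 2.5 hours with ATPγS, a slowly hydrolysed form of ATP that activates nucleotide receptors, at 100 µM (the unit's prefix is a symbol-font letter in the labels, read here as µ). The control library came from cells of the same strain and colitis model stimulated without ATPγS. There was 1 library per condition, so no value below has a replicate error, no p-value was computed, and every difference describes these 2 libraries. The labels do not say how many mice gave the cells of a library.

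Cells make cholesterol from acetyl-CoA through mevalonate, farnesyl diphosphate and squalene, and make fatty acids from the same starting compound through malonyl-CoA. Both routes are switched on by the SREBP transcription factors, which SCAP escorts out of the endoplasmic reticulum when sterols are low and which the INSIG proteins hold back when sterols are high. The liver X receptors work the other way, responding to oxidised sterols by raising the export pumps ABCA1 and ABCG1. In neutrophils and macrophages these routes set membrane composition and lipid storage.

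The sterol enzyme genes scattered widely, and 9 of the 14 that could be compared had a log2 ratio of ATPγS over control below 0, against 49.6% of all genes and 60.0% of those with a mean of at least 10 FPKM. Squalene epoxidase (Sqle), the sterol dehydrogenase gene Nsdhl and the SREBP inhibitor gene Insig2 were listed at least 2-fold lower, while the mevalonate kinases Mvk and Pmvk, which act in succession, were listed at least 2-fold higher. The fatty acid synthase genes hardly differed, and the elongase gene Elovl5 was 1.7-fold higher. The liver X receptor gene Nr1h2, both export pumps and the sterol esterification gene Soat1 were each lower by less than 1.5-fold. Genes with a mean of at least 10 FPKM also leaned lower, with a median of -0.13 on the log2 scale. Of these 4 efflux and storage genes, among them Abca1 with a lower mean of 9.13 FPKM, only Soat1 lay below that shift by more than its counting error.

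Promoter sequence was examined because the sterol enzymes are known to share SREBP sites. It is shown for genes picked by a motif match or by their values, and not for every called gene. RefSeq promoters (GRCm38.p6, 250 bases before to 50 after each start) were found for 26 of the 33 genes, and Fdps, Fdft1, Sqle, Scd1, Scd2, Abcg1 and Stard4 had no entry. The first 3 promoters held a match, on either strand, to the classic 10-base sterol element with at most 1 mismatch, and capitals mark that match.
Hmgcs1, chr13:119690101-119690400, plus strand: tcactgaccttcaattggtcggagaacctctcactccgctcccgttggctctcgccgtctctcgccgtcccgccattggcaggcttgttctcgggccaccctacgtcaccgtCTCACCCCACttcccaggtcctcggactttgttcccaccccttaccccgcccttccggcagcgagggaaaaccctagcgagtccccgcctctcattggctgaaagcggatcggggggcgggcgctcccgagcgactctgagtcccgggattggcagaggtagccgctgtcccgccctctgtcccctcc
Nsdhl, chrX:72918271-72918570, plus strand: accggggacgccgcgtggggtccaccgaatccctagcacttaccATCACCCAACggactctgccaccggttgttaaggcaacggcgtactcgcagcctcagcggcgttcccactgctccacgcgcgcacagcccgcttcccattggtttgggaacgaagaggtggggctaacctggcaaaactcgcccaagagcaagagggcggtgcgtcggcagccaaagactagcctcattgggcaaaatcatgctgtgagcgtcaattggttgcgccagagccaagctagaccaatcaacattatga
Srebf2, chr15:82147019-82147318, plus strand: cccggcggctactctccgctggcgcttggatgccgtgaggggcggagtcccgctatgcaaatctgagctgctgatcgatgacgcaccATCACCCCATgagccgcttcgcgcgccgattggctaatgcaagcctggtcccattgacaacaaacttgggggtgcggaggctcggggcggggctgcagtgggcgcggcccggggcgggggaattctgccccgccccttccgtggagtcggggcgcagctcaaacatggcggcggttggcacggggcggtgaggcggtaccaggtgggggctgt
The next pair comes from Mvk and Mvd, enzymes of the same short stretch of the pathway that were listed in opposite directions, and capitals mark the CCAAT box on either strand, the letters bound by NF-Y, a known partner of SREBP.
Mvk, chr5:114444019-114444318, plus strand: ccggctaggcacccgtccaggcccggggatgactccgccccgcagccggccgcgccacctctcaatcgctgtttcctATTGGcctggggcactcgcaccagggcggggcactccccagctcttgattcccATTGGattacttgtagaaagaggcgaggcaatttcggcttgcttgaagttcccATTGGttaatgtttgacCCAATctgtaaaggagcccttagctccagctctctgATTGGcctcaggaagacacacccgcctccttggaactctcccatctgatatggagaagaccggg
Mvd, chr8:122443373-122443672, minus strand: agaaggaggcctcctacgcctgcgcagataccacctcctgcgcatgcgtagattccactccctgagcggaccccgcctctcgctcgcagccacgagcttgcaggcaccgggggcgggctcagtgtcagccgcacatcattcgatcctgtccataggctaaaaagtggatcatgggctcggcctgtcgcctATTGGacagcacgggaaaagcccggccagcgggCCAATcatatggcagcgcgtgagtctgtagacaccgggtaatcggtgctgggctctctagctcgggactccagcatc

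With the start site at 0, the sterol element began at position -138 in Hmgcs1, -206 in Nsdhl and -163 in Srebf2. Its letters in the direction of the gene were CTCACCCCAC, ATCACCCAAC and ATCACCCCAT. These 3 were the only members among the 26 with the element, against 2.22% of 27025 genes. The stricter form TCACNCCAC, whose letters lie within the looser one, was held by Hmgcs1 alone of the 26, against 1.44% of genes. CCAAT boxes were far more common. They stood in 12 of 13 matched sterol enzyme genes, 4 of 5 regulators, 2 of 4 fatty acid genes and 1 of 4 efflux and storage genes, against 41.1% of all genes, where a gene with several starts counts if any of its promoters holds the box. The Mvk promoter held 5, between positions -173 and -14, and the Mvd promoter 2, at -60 and -27. No CCAAT box overlapped a sterol element in Hmgcs1, Nsdhl or Srebf2. The E-box CACGTG stood in 6 of the 26 genes, against 8.09% of all genes, and the liver X receptor element, a direct repeat with a spacer of 4 bases, in 0 of 26, against 0.0148%. For the liver X receptor element only the exact repeat, with no mismatch, was searched. It stood in 4 of 27025 genes, so 0 of 26 cannot decide whether these promoters hold looser forms, which were not searched. The motif matches describe letters only. Genes with a sterol element were listed lower (Hmgcs1, Nsdhl) and higher (Srebf2), and CCAAT boxes stood both in Mvk and in Mvd.

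The libraries were shallow, about 2848000 fragments for ATPγS and 2133000 for the control, as read from the steps of the FPKM values (fragments scaled by transcript length and library depth). Olfactory and vomeronasal receptor genes, assumed here to be mostly unused in myeloid cells, gave a background level. The 75th percentile of 1416 such genes was 5.40 FPKM in the ATPγS library and 5.48 FPKM in the control. Neutrophil transcripts dominated in both libraries, with S100a8 at 22410 and 20604 FPKM and S100a9 at 14942 and 13776 FPKM (ATPγS and control), and 10 of 11 listed neutrophil markers were in the tables, none at 0. Transcripts of other cell types were also present. The summed level of 10 T and NK cell markers was 155.5 FPKM in the ATPγS library and 306.1 FPKM in the control, with Cd3g at 19.4 and 76.5 FPKM and Gzma at 66.1 and 45.8 FPKM. For 6 B cell markers it was 894.9 and 1261 FPKM (Jchain 643 and 930, Cd79a 85.9 and 133), for 7 monocyte markers 304.2 and 327.6 FPKM (Ms4a6c 141 and 146, Ly6c2 63.7 and 70.9), and for 13 macrophage and dendritic cell markers 4283 and 3834 FPKM (Cd74 2825 and 2647, H2-Ab1 643 and 545). Epithelial markers summed to 122.3 and 152.5 FPKM over 8 genes, led by Krt8 (32.7 and 51.8) and Lgals4 (31.7 and 38.6). The 2 epithelial markers called were higher, Vil1 at 3.92 FPKM with ATPγS and 0 in the control and Muc2 at 2.04 and 0.222 FPKM. Epcam, which was not called, stood at 21.4 and 15.1 FPKM. The median log2 ratio of the 8 epithelial markers was -0.35. The 7 fibroblast and adipocyte markers summed to 916 and 918.8 FPKM, led by Dcn (587 and 605) and Col3a1 (241 and 227). No other marker of these lists was at 0. By the 2-fold call defined below, 6 of 10 T and NK markers were lower and 0 higher, with a median log2 ratio of -1.35. Of all genes, 9.91% were called lower and 13.8% higher. Of the macrophage and dendritic cell markers 2 were called higher and 1 lower, and of the B cell markers 0 and 1. The neutrophil list and the fibroblast and adipocyte list had 1 called higher each and 0 lower, and the monocyte list 0 called. The part of these other cell types in the values below was not tested. Fewer cells of a type and less RNA per cell cannot be told apart in a bulk library.

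**Figure D1:**
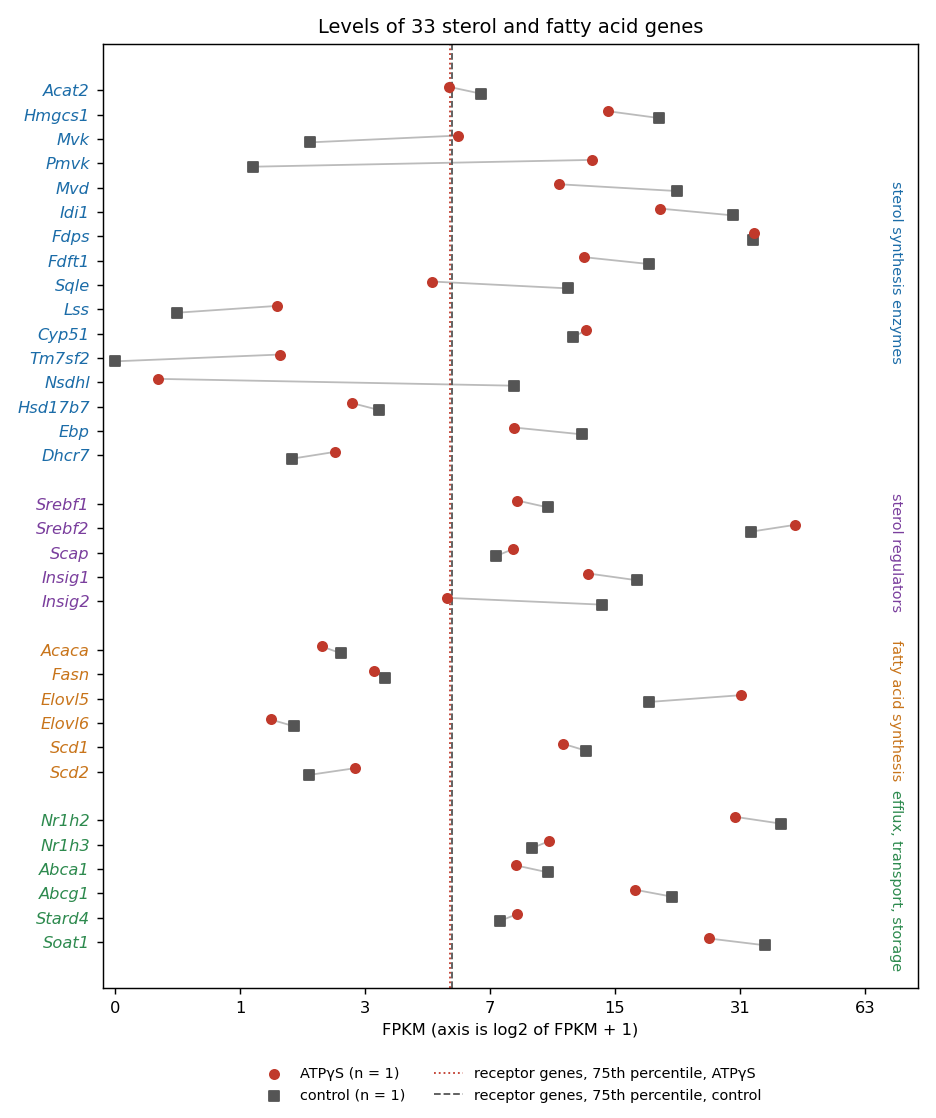
FPKM of the 33 genes in the ATPγS library (red circles) and the control library (grey squares), 1 library each, on an axis of log2(FPKM + 1), with dotted and dashed lines at the 75th percentile of receptor genes (5.40 and 5.48 FPKM). The longest connecting lines belong to Pmvk and Nsdhl, which run in opposite directions, and 8 genes lie left of both lines in both libraries.

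A gene entered the counts at a mean of at least 1 FPKM, and was called at a ratio of at least 2-fold on log2((ATPγS FPKM + 1) / (control FPKM + 1)), a scale that understates the difference of low genes. Of the 31 genes that entered, 2 were called higher and 3 lower, against 13.8% and 9.91% (23.7% in either direction) of all 18311 genes at that level. Of 987 olfactory and vomeronasal receptor genes at that level, 44.5% were called. The median log2 ratio of the 31 members was -0.21, against 0.01 for all genes, and 20 of the 31 lay below 0, against 49.6% of all genes. Among genes with a mean of at least 10 FPKM, as a whole shifted to a median of -0.13, 0 of 14 members were called, against 11.7% of genes. The exact binomial (Clopper-Pearson) 95% interval of a ratio, from the estimated fragments of each gene, covers counting error only. It lay above 1 for 4 members and below 1 for 11, against 23.7% and 25.2% of 15910 genes (48.8% in either direction). Intervals that exclude 1 were thus about as frequent among all genes as among the 31.

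**Figure D2:**
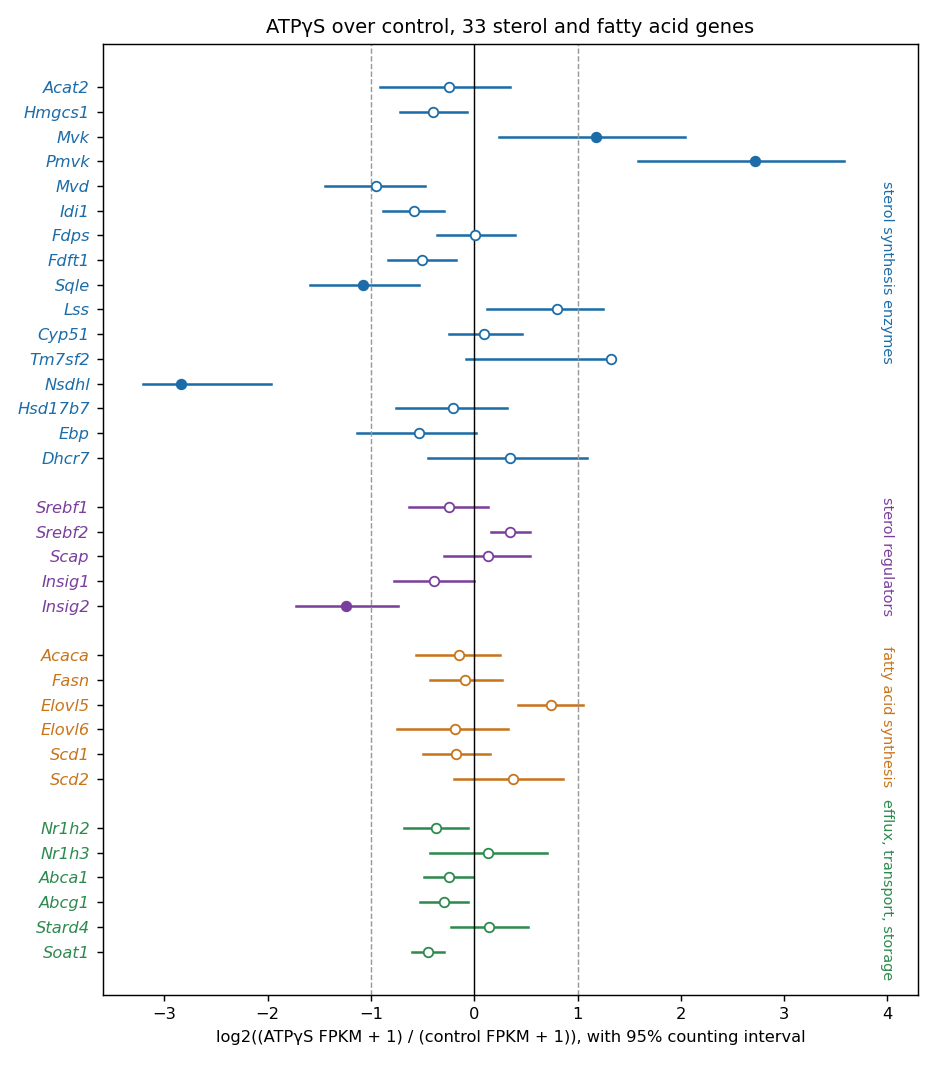
Log2 ratio of ATPγS over control FPKM (pseudocount 1) for each gene, with bars for the 95% counting interval, filled where the gene was called at 2-fold (dashed lines at -1 and 1). Filled points are Mvk and Pmvk on the right and Sqle, Nsdhl and Insig2 on the left, and the remaining points lie between the dashed lines, except Tm7sf2, whose mean was under 1 FPKM.

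In the mevalonate arm, which runs from acetyl-CoA to farnesyl diphosphate, the enzymes split. Mvd, which decarboxylates mevalonate diphosphate (chromosome 8, 122433601 to 122443422, GRCm38), was at 10.7 FPKM in the ATPγS library and 21.5 FPKM in the control. The ratio was 0.496 (counting interval 0.34 to 0.701), about 53 and 81 fragments, and its log2 ratio of -0.95 fell just short of the call. Idi1, the isomerase that follows, was at 19.5 FPKM with ATPγS and 29.7 FPKM in the control, a ratio of 0.656 (0.53 to 0.81). Hmgcs1, the synthase of the step before mevalonate, was at 14.4 and 19.4 FPKM in ATPγS and control (0.746, 0.59 to 0.951). The intervals of these 3 enzymes all lay below 1. Of their 50-base stretches, 30.5% in Idi1 and 13.6% in Hmgcs1 also stand in transcripts of other genes, so their reads are uncertain too.

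The kinases between them went the other way. Pmvk, phosphomevalonate kinase (chromosome 3, 89454541 to 89469013), was at 13.1 FPKM in the ATPγS library and 1.15 FPKM in the control, about 45 and 3 fragments. The ratio of 11.4 had a counting interval of 3.61 to 56.5. Mvk, mevalonate kinase (chromosome 5, 114444269 to 114460591), was at 5.71 FPKM with ATPγS and 1.95 FPKM in the control, about 27 and 7 fragments (ratio 2.92, interval 1.23 to 7.86). Both kinases lay under the 75th percentile of receptor genes in the control, and Mvk barely above it with ATPγS. Among genes with a mean of 1 to 5 FPKM, where Mvk lies, 21.2% were called higher, and among those of 5 to 20 FPKM, where Pmvk lies, 10.3%. Acat2, the cytosolic thiolase that joins acetyl-CoA units, was at 5.38 and 6.61 FPKM in ATPγS and control (0.815, 0.476 to 1.33). Fdps, farnesyl diphosphate synthase, was the highest of the sterol enzymes and alike in both libraries, at 33.5 FPKM with ATPγS and 33.3 FPKM in the control (ratio 1.004, 0.771 to 1.32). Reads of both are uncertain, since 45.9% of the 50-base stretches of Acat2 also stand in Acat3 (10.2 and 6.72 FPKM) and 86.4% of those of Fdps in transcripts of other genes.

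From squalene on, the enzyme genes were not alike. Sqle (chromosome 15, 59315077 to 59331192), a rate-limiting oxygenase, was at 4.81 FPKM in the ATPγS library and 11.3 FPKM in the control, about 38 and 66 fragments. Its ratio was 0.426 (0.281 to 0.652), and its log2 ratio of -1.08 passed the call. Nsdhl (chromosome X, 72918557 to 72958514), which removes methyl groups from the sterol ring together with Msmo1 and Hsd17b7, was at 0.27 FPKM with ATPγS and 8.12 FPKM in the control. That is about 2 and 38 fragments, with a ratio of 0.0332 (0.00461 to 0.153), the lowest ratio among the 33. Both Sqle and Nsdhl lay under the receptor level of 5.40 FPKM with ATPγS and above that of the control library in the control. In the range of Nsdhl, 1 to 5 FPKM, 10.9% of genes were called lower, and in that of Sqle, 5 to 20 FPKM, 11.2%.

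Other enzymes after farnesyl diphosphate differed less than Nsdhl. Msmo1, the oxygenase of sterol ring demethylation and not among the 33 genes, was called lower. It was at 23.5 FPKM in the ATPγS library and 53.0 FPKM in the control (ratio 0.444, 0.357 to 0.551). Sc5d, a late sterol desaturase also outside the 33 and named after its values were seen, was higher, at 22.9 FPKM with ATPγS and 16.7 FPKM in the control (1.37, 1.13 to 1.66). Hsd17b7, the keto reductase, was at 2.73 and 3.32 FPKM in ATPγS and control (0.823, 0.495 to 1.35), within the background level. Ebp, the sterol isomerase, was at 8.15 FPKM with ATPγS and 12.3 FPKM in the control, and its interval of 0.415 to 1.02 includes no difference. Fdft1, squalene synthase, was at 12.5 and 18.3 FPKM in ATPγS and control (0.685, 0.538 to 0.876). Its exons overlap 774 bases of Ctsb on the opposite strand, a gene at 652 and 582 FPKM, and reads from the 2 strands cannot be told apart with this kit.

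Cyp51, the lanosterol demethylase, hardly differed, with 12.6 FPKM in the ATPγS library and 11.7 FPKM in the control (1.07, 0.827 to 1.41). Lss, which closes the sterol rings, was at 1.46 FPKM with ATPγS and 0.414 FPKM in the control, about 19 and 4 fragments. Dhcr7, a reductase of the final steps, was at 2.39 and 1.67 FPKM in ATPγS and control (1.43, 0.63 to 3.43). Tm7sf2, a sterol reductase, was at 1.499 FPKM with ATPγS, about 6 fragments, and listed at 0 in the control. Lss, Tm7sf2, Hsd17b7 and Dhcr7 all lay at or under the 75th percentile of receptor genes in both libraries, and Lss and Tm7sf2 did not enter the counts. Over the 14 sterol enzymes that did, 2 were called higher and 2 lower, against 13.8% and 9.91% of all genes. A log2 ratio below 0 was held by 9 of 14, against 49.6% of all genes. The median of the 14 was -0.33, and -0.46 over the 12 above the receptor level in either library. The summed FPKM of the 16 enzymes was 149 in the ATPγS library and 181 in the control. Split by step, the sums were 102 and 114 FPKM up to farnesyl diphosphate, and 46.4 and 67.1 FPKM from squalene on.

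**Figure D3:**
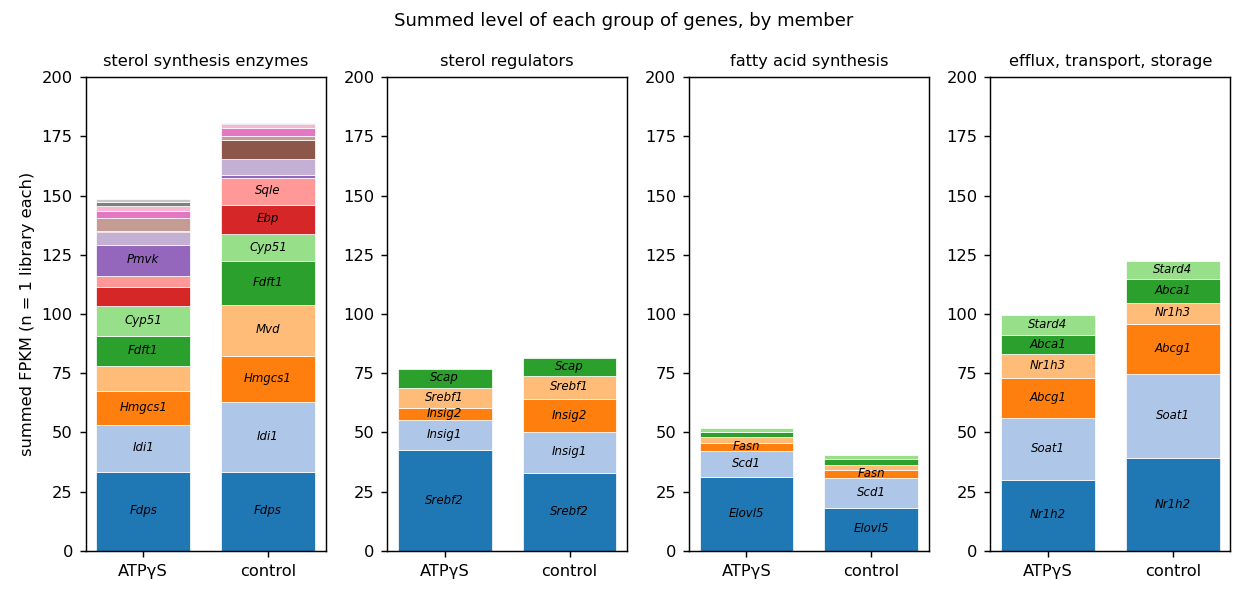
Summed FPKM of each group of genes, stacked by gene, with the ATPγS library on the left of each panel and the control library on the right (1 library each, axes starting at 0). The enzyme stack is 149 against 181 FPKM and the efflux stack 99.5 against 122 FPKM, while the fatty acid stack is 51.7 against 40.5 FPKM, with Elovl5 at 31.2 against 18.3 FPKM.

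Neither SREBP gene was called. Srebf2, whose product mainly drives cholesterol synthesis, was the most abundant of the 33 genes in the ATPγS library, at 42.4 FPKM there and 33.05 FPKM in the control. The ratio of 1.28 had a counting interval of 1.12 to 1.47, from about 613 and 358 fragments. Srebf1, whose product mainly drives fatty acid synthesis, was at 8.29 and 10.01 FPKM in ATPγS and control (0.828), with an interval of 0.614 to 1.1 that includes no difference. The level of Srebf2 was 5.12 times that of Srebf1 with ATPγS and 3.30 times in the control.

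Scap, the escort protein, was at 8.07 FPKM in the ATPγS library and 7.28 FPKM in the control (1.11, 0.797 to 1.53). Insig2 (chromosome 1, 121304353 to 121332589), which retains SCAP in the endoplasmic reticulum, was the only regulator called, at 5.30 FPKM with ATPγS and 13.9 FPKM in the control. Its ratio was 0.381 (0.257 to 0.566), from about 41 and 80 fragments, or 0.157 to 0.838 from about 10 and 20 fragments if its shortest transcript is used. With ATPγS it lay under the receptor level of 5.40 FPKM. Insig1, its relative, was at 12.8 and 17.1 FPKM in ATPγS and control (0.749), with an interval from 0.56 that reaches 1. Insig1 stood at 2.41 times the level of Insig2 with ATPγS, against 1.23 times in the control. The median log2 ratio of the 5 regulators was -0.25, against 0.01 for all genes. Of the 5, 1 was called lower and 0 higher, against 9.91% and 13.8% of all genes, and 4 lay between.

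The fatty acid genes were mostly low and even. Acaca, acetyl-CoA carboxylase, was at 2.15 FPKM in the ATPγS library and 2.50 FPKM in the control (0.859, 0.572 to 1.29), and 55.4% of its 50-base stretches also stand in another annotated transcript, Gm5182. Fasn, fatty acid synthase, was at 3.20 and 3.46 FPKM in ATPγS and control (0.926, 0.678 to 1.28). Elovl6, which elongates palmitate, was at 1.37 FPKM with ATPγS and 1.70 FPKM in the control (0.804, 0.417 to 1.47). These 3 lay within the receptor level in both libraries.

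The desaturase gene Scd1 was better detected, at 11.01 FPKM in the ATPγS library and 12.6 FPKM in the control (0.874, 0.688 to 1.12). Its relative Scd2, which shares 2.68% of its 50-base stretches with Scd1, was at 2.79 and 1.93 FPKM in ATPγS and control (1.44, 0.825 to 2.43), within the receptor level. Elovl5 (chromosome 9, 77917364 to 77984519), which elongates polyunsaturated fatty acids, was the fatty acid gene that stood out. It was at 31.2 FPKM with ATPγS and 18.3 FPKM in the control, about 247 and 109 fragments, a ratio of 1.70 (1.35 to 2.15). Among genes with a mean of at least 20 FPKM, as for Elovl5, 2.30% were called higher at 2-fold, a threshold that Elovl5 did not reach. At 1.5-fold, which Elovl5 passed, 4408 of 18311 genes over all levels were higher. Counting intervals lay above 1 for 23.7% of 15910 genes. Against 23.7% of all genes in either direction, 0 of the 6 genes were called. Their median log2 ratio was -0.12 and their mean 0.08, and the median was 0.28 over the 2 genes with a mean of at least 5 FPKM, so the group has no direction.

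In the efflux and storage group, 4 of 6 genes were lower with ATPγS by small amounts. Of all genes 49.6% had a log2 ratio below 0, and of those with a mean of at least 10 FPKM 60.0%. In the group 0 were called, against 23.7% of all genes in either direction. Soat1 (chromosome 1, 156424525 to 156474331), which esterifies cholesterol for storage, was at 25.9 FPKM in the ATPγS library and 35.7 FPKM in the control. With about 618 and 637 fragments, its ratio of 0.727 had the narrow interval of 0.649 to 0.813. The pump gene Abcg1 was at 16.9 and 20.9 FPKM in ATPγS and control (0.806, 0.679 to 0.959), and Abca1 at 8.25 and 10.01 FPKM (0.824, 0.684 to 0.994). Both pumps were lower by about the same factor, so Abcg1 stood at 2.04 times the level of Abca1 with ATPγS and 2.09 times in the control.

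Nr1h2, which encodes liver X receptor beta, was at 30.1 FPKM in the ATPγS library and 39.1 FPKM in the control (0.77, 0.616 to 0.955). Nr1h3, which encodes liver X receptor alpha, was at 10.1 and 9.11 FPKM in ATPγS and control (1.10, 0.718 to 1.71). Stard4, a cytosolic sterol carrier, was at 8.30 FPKM with ATPγS and 7.44 FPKM in the control (1.12, 0.837 to 1.5). The median log2 ratio of the 6 genes was -0.27, against -0.13 for all genes with a mean of at least 10 FPKM. Abca1, Nr1h3 and Stard4 had means under that level, at 9.13, 9.59 and 7.87 FPKM. For all genes with a mean of 5 to 20 FPKM the median was -0.06, a value inside the interval of Abca1. After the ATPγS values were rescaled so that genes with a mean of at least 10 FPKM had a median of 0, the group's median was -0.15. The counting intervals of Nr1h2 (-0.68 to -0.06 in log2), Abcg1 (-0.53 to -0.06) and Abca1 (-0.49 to -0.01) included the value -0.13. These genes were thus not set apart from that shift between the libraries. The interval of Soat1 (-0.6 to -0.29) lay below it.

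**Figure D4:**
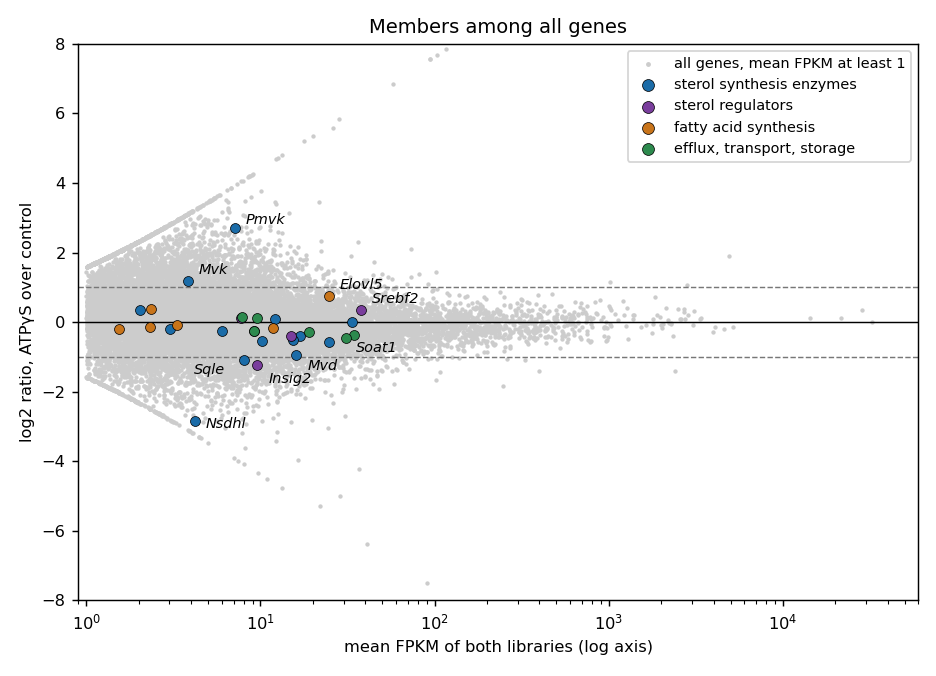
Log2 ratio of ATPγS over control FPKM against the mean FPKM of both libraries (log axis) for all genes with a mean of at least 1 FPKM (grey) and the members (coloured by group), with dashed lines at 2-fold and 30 genes beyond 8 not drawn. The members lie within the grey cloud, which narrows at higher levels, and Pmvk and Nsdhl lie nearest its edges.

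Of 44 other genes of the same pathways, 43 were in the tables and 39 entered the counts. Their median log2 ratio was -0.04, against 0.01 for all genes. Of the 39, 2 were called higher and 2 lower, against 13.8% and 9.91% of all genes. The lower ones were Msmo1, above, and Mbtps1, which encodes the Golgi protease that makes the first cut in SREBP, at 7.90 FPKM in the ATPγS library and 18.2 FPKM in the control (0.434, 0.335 to 0.56). The higher ones were Fads2, a desaturase of polyunsaturated fatty acids, at 6.70 and 0.839 FPKM in ATPγS and control (7.98, 3.25 to 21.2), and Cyp27a1, which makes an oxysterol, at 16.3 and 3.45 FPKM (4.72, 2.66 to 8.96). The 4 most abundant genes of the list differed by less than 1.5-fold. They were the lipid carrier gene Apoe at 716 FPKM with ATPγS and 611 FPKM in the control, the elongase gene Elovl1 at 104 and 80.9 FPKM, the lysosomal lipase gene Lipa at 74.3 and 76.9 FPKM and the reductase gene Tecr at 57.0 and 61.4 FPKM.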

How the data were processed

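RNA sequencing gave 1 library per condition. Full-length cDNA came from a SMART-Seq HT kit and the library from a Nextera kit, per the labels' protocols, and this preparation does not mark strand. Cufflinks 2.2.1, SAMtools 0.1.19, Bowtie2 2.2.3 and TopHat2 2.0.13 with build mm10 are named, per the submitters' processing notes. The deposited values are FPKM per gene symbol, the unit Cufflinks writes. Gene annotation and tool options: not given in the sources used here.

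From these, log2 ratios with a pseudocount of 1 FPKM were computed at a mean of at least 1 FPKM and called at 2-fold. Depth was the fragment total that made the most low receptor values whole (within 0.05 fragments). This held for 65.4% of 642 values under 10 fragments in the ATPγS library and 65.6% of 639 in the control. Chance gives 10% at any 1 fixed depth, whereas these shares are the highest over all depths tried, for which no chance value was computed. Fragments per gene used the longest RefSeq-linked transcript of GENCODE M21 (GRCm38, the build of mm10) and are approximate. Intervals are exact 95% binomial, for counting error only, since PCR copies cannot be told from molecules. SciPy 1.17.1 and matplotlib 3.10.9 were used, and the steps were tested on simulated data. The members, lists and rules were chosen with earlier results of these data known. All 33 members are named, with the called and the 4 most abundant of the other pathway genes and the 2 most abundant of each marker list. Sc5d, Vil1, Muc2 and Epcam were named outside this rule with their values known. Acat3, Ctsb and Gm5182 are named because they share exons or sequence with a member, and other genes that do so are not named. Alternatives were pseudocounts of 0.1 and 5, 2 rescalings, other minima and thresholds, and means. Leaving out genes at the receptor level or with shared sequence, and the shortest transcripts, were chosen after seeing the data.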

Additional observations from a re-analysis of the deposited data

How the results depend on the processing

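No paired analysis was possible because each condition had 1 library, which also leaves no replicate to omit. The count of called sterol enzymes was 4, and 2 (1 higher, 1 lower) with a pseudocount of 5, a minimum mean of 5 FPKM or a 3-fold threshold. Among the regulators it was 1, and 0 with a pseudocount of 5 or a 3-fold threshold. Among the fatty acid genes it was 0, and 1 (Elovl5) at 1.5-fold. The share of all genes called was 23.7%, and 5.58% with a pseudocount of 5, 44.7% at 1.5-fold and 9.64% at 3-fold. The promoters with a sterol element numbered 1, and 3 with the 10-base element at 1 mismatch. The medians of the sterol enzymes (-0.46 to -0.21), regulators (-0.28 to -0.13) and efflux genes (-0.29 to -0.15) stayed below 0 under every alternative run. Rescaling shifted the ATPγS library by 0.05 (same sum) or 0.13 (median of 0) on the log2 scale. Rescaling to a median of 0 changed the sign of Fasn and left 1 sterol enzyme called lower, not 2. Without Acat2, Fdps, Fdft1, Idi1 and Hmgcs1 the sterol enzyme median was -0.21. The shortest transcripts moved 0 intervals across 1, but cut the estimated fragments of Insig2 to about 10 and 20. Depth limits the genes with few fragments, such as Nsdhl with ATPγS and Pmvk in the control.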
